A study of Mus musculus with 12 samples.

Results

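The DNA repair and checkpoint genes described here are 36 genes found by symbol among the 23336 gene symbols of a count table from B16 cells, a mouse melanoma line. They comprise 15 genes of homologous recombination, 8 of the Fanconi anaemia pathway, 6 checkpoint genes, 3 of end joining, 2 PARP enzymes, the mismatch repair gene Msh6 and the post-replication repair gene Rad18. All 36 were in the table and all 36 passed the filter on low counts, which left 11561 genes to test. Members and the lists of other genes used below were chosen with earlier results of these data known. Counts of members or list genes beside shares of all genes are therefore a description, not a test of the set. The cells had received Cas9 and a guide RNA from a transient plasmid and were then subcloned. Adar-null cells carried Adar sgRNA 1 and control cells carried non-targeting sgRNA 5, so each genotype stands for 1 guide and the cells grown out after it. Both genotypes were kept for 36 h with interferon-beta (IFNb) at 1000 U/mL or with vehicle, which was PBS with 0.1% BSA, giving 4 groups of 3 libraries from rRNA-depleted total RNA. Whether replicate libraries were made from separate cultures is not in the labels. The p-values therefore reflect spread among libraries that could be technical in part or in full.

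Homologous recombination repairs broken DNA by copying the sister chromatid: the MRE11, RAD50 and NBN complex, CtIP (encoded by Rbbp8) and EXO1 trim the ends, BRCA1, BARD1, PALB2 and BRCA2 prepare the strand, and RAD54 proteins help the strand to invade. The Fanconi anaemia proteins mark and open DNA cross-links, ATR and CHK1 with their activators Claspin and TOPBP1 watch over replication forks, and ATM and CHK2 answer to breaks. End joining, with the Ku proteins XRCC5 and XRCC6 and the ligase LIG4, acts in every phase of the cell cycle, whereas many genes of the first 3 groups are known to be transcribed mainly as cells enter and pass through S phase. ADAR, the enzyme whose gene the guide targeted, edits adenosines in double-stranded RNA, and IFNb is a cytokine that switches on antiviral genes.

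Since the transcription factors E2F and NF-Y are known to bind many S-phase genes, the promoters of the members were searched for short words on both strands. RefSeq windows of GRCm38.p6, from 250 bases before to 50 bases after a gene's start, were matched for 29 of the 36 members in 32 windows. An E2F word (TTTCGCGC, TTTGGCGC, TTTCCCGC or TTTGCCGC) was found in 8 of the 32 windows (25.0%), compared with 2.26% of all 32851 windows and 3.98% of the 10673 windows of genes tested here. The 8 windows are shown because their genes range from Clspn, 19.4-fold lower with IFNb in Adar-null cells, to Xrcc6, which was not called there. The E2F word is in capitals in each stretch of 100 bases, written 5′ to 3′ along the gene's strand.
Bard1, chr1:71103123-71103222, minus strand: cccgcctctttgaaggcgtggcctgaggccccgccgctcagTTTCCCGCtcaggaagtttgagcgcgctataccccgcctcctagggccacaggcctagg
Brca2, chr5:150522407-150522506, plus strand: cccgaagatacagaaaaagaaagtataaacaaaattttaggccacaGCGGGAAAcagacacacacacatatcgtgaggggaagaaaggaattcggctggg
Chek2, chr5:110839785-110839884, plus strand: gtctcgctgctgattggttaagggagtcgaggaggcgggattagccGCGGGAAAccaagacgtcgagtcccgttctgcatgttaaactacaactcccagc
Clspn, chr4:126556910-126557009, plus strand: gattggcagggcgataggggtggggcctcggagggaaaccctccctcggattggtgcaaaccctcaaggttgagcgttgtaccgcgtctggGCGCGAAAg
Fancg, chr4:43010300-43010399, minus strand: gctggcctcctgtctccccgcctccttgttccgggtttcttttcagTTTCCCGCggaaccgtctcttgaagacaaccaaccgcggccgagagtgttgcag
Msh6, chr17:87974980-87975079, plus strand: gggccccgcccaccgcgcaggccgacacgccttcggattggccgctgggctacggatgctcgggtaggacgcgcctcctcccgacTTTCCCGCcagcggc
Topbp1, chr9:103305152-103305251, plus strand: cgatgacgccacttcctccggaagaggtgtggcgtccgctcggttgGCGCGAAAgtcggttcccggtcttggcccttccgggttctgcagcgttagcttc
Xrcc6, chr15:82016277-82016376, plus strand: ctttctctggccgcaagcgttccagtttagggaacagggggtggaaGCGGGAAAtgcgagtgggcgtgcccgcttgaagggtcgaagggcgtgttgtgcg

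Among the members at least 2-fold lower with IFNb in Adar-null cells, 4 of 18 windows held the E2F word (22.2%), and among the other members 4 of 14 did (28.6%). Bard1, Brca2, Clspn and Topbp1 were in the first set, and Chek2, Fancg, Msh6 and Xrcc6 in the second. Among the members with a window, the word was thus not more frequent in those at least 2-fold lower. The 18 and 14 windows belong to 16 and 13 genes. Rad54b, Xrcc2, Exo1, Rbbp8, Rad50, Nbn and Fancd2 had no window. Of these, Rad54b, Xrcc2, Exo1 and Fancd2 were at least 2-fold lower, so the comparison leaves them out. Over all genes tested, it stood in 6.2% of the windows of genes at least 2-fold lower and in 1.96% of those of genes at least 2-fold higher. The CCAAT word of NF-Y was found in 56.2% of member windows, 37.4% of all windows and 38.2% of those of genes tested. The word TTTGAA of the cell-cycle homology region stood in 3.12% of member windows (1 of 32), 17.9% of all windows and 11.7% of those of genes tested. The core of the interferon-stimulated response element, GAAANNGAA, was present in 12.5% of member windows, 8.56% of all windows and 6.91% of those of genes tested, and the members holding it were Brca2, Chek1, Fancg, where it overlaps the E2F word, and Xrcc5. Of the members holding the core, Brca2, Chek1 and Fancg were called lower with IFNb in Adar-null cells, and Xrcc5 was higher in both genotypes. Atm, also higher in both, has a window without the core. A link between the core and the response was not tested. The stretch of Xrcc5 is given with that core in capitals.
Xrcc5, chr1:72307211-72307310, plus strand: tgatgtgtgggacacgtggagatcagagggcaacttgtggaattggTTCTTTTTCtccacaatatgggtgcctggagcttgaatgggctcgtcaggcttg

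The 12 libraries held 5375649 to 7153480 counts each, of which the 45S ribosomal RNA precursor Rn45s took 21.1 to 22.9% with vehicle and 24.9 to 28.5% with IFNb. Values are given as CPM, a gene's counts relative to the library's total after TMM scaling (trimmed mean of M-values), and a gene was called changed at an adjusted p under 0.05 in edgeR's quasi-likelihood test over all 11561 genes. Adar itself stood at 74.3, 70.3 and 71.9 CPM in control vehicle, 377, 384 and 392 CPM in control IFNb, 65.6, 56.3 and 56.7 CPM in Adar-null vehicle and 418, 422 and 383 CPM in Adar-null IFNb libraries. Its vehicle level was slightly lower in Adar-null than in control cells (-0.28 ± 0.06 (SE) on the log2 scale, adjusted p = 0.0017), and counts per gene do not show the edited site. The 7 melanocyte markers were present in every group, with summed levels of 15641 to 16469 CPM in control vehicle, 13362 to 13660 CPM in control IFNb, 15254 to 15440 CPM in Adar-null vehicle and 10432 to 11147 CPM in Adar-null IFNb libraries. The 6 leukocyte markers summed to at most 0.660 CPM, with Cd3e and Nkg7 among those at 0 in all groups. The 6 markers of fibroblasts and endothelium summed to 8.21 to 14.99 CPM, with Cdh5 at 0 in 3 groups. The 20 proliferation genes, among them Mki67 and the MCM genes, summed to 4415 to 4565 CPM in control vehicle, 3937 to 4051 CPM in control IFNb, 4702 to 4842 CPM in Adar-null vehicle and 671 to 675 CPM in Adar-null IFNb libraries. Their part in the results on the repair genes was not tested. In bulk RNA, fewer cells that express a gene and less RNA per cell cannot be told apart.

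Seen as a whole, the members took 0.269 to 0.282% of the counts outside Rn45s in control vehicle libraries, 0.299 to 0.305% in control IFNb, 0.28 to 0.287% in Adar-null vehicle and 0.145 to 0.149% in Adar-null IFNb libraries. The Adar-null IFNb libraries were thus the lowest of all 12, and the 3 other groups lay close together. Summed over the members, the level with IFNb was 1.11 times the vehicle level in control cells and 0.519 times in Adar-null cells. The ratio in Adar-null cells ran from 0.244 for the Fanconi anaemia genes through 0.353 for Rad18, 0.393 for homologous recombination, 0.572 for the PARP enzymes, 0.62 for the checkpoint genes and 0.66 for Msh6 to 1.17 for end joining.

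**Figure D1:**
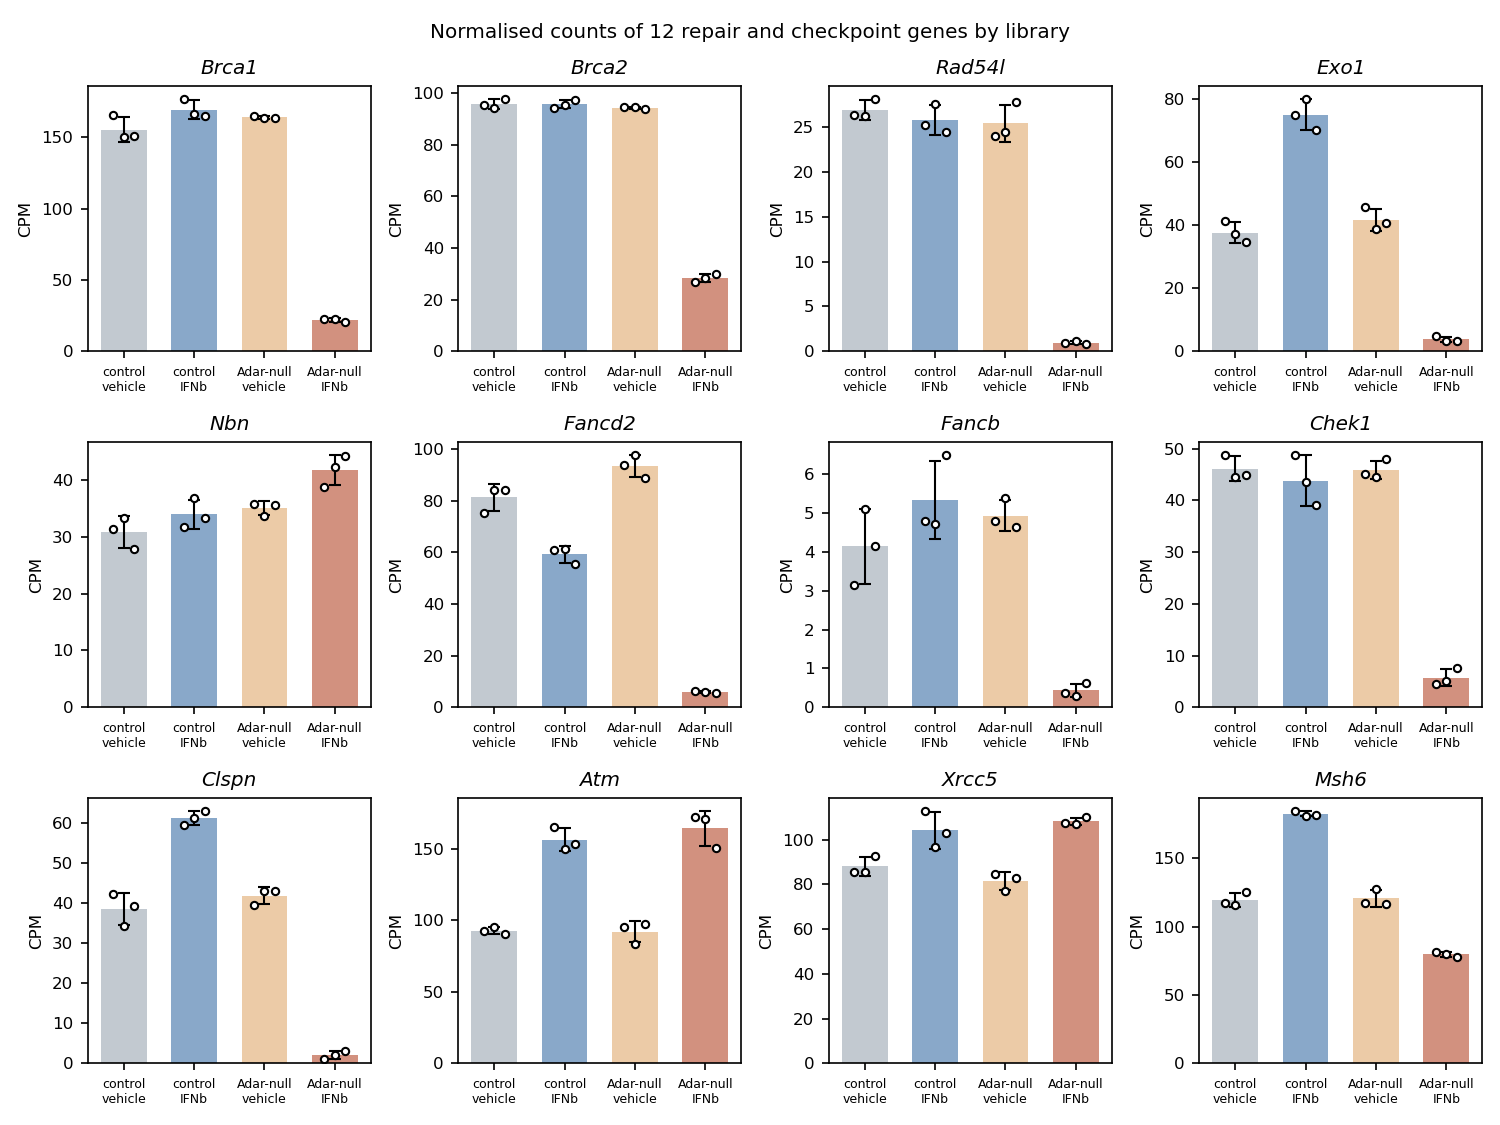
Normalised counts (CPM, linear axis from 0) of 12 members in the 4 groups. The genes are from homologous recombination, the Fanconi anaemia pathway, the checkpoint genes, end joining and mismatch repair. Bars are means, error bars the SD and circles the 3 libraries of a group. In the Adar-null IFNb group 9 of these genes lie below all other libraries, while Nbn, Atm and Xrcc5 do not.

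Before interferon, the repair and checkpoint genes lay at nearly the same levels in the 2 genotypes. With vehicle, 1 of the 36 members was higher in Adar-null cells and 0 were lower, where 2.47% of all genes tested were higher and 4.05% were lower. At an unadjusted p under 0.05, 5 members were higher and 0 lower (8.64% and 10.9% of all genes tested), and DESeq2 called 0 in either direction. Over the members, the median log2 difference was 0.03, with a range of -0.20 for Chek2 to 0.26 for Rad54b, and over all genes tested it was -0.00. In 6 members all Adar-null libraries lay above all control libraries and in 1 member below, where this was so for 10.5% and 11.8% of all genes tested.

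The member called was Fancd2, whose product is the protein that the Fanconi core complex ubiquitinates. Its vehicle levels were 75.4, 84.3 and 84.2 CPM in control libraries and 93.7, 97.7 and 89.0 CPM in Adar-null libraries. All 3 Adar-null libraries were above all control libraries, with a log2 difference of 0.20 ± 0.06 (SE) and an adjusted p of 0.0314. The call was lost without control vehicle replicate 1 or 2 or Adar-null vehicle replicate 1 or 2 (adjusted p from 0.0552 to 0.22), and DESeq2 gave an adjusted p of 0.165. Bard1, the partner of BRCA1, Rad50 and Mre11a had log2 differences of 0.20, 0.16 and 0.24 and adjusted p-values of 0.0613, 0.0547 and 0.081. Without control vehicle replicate 1 these 3 passed the threshold, at adjusted p-values of 0.0471 for Bard1 and Rad50 and 0.046 for Mre11a.

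In control cells, IFNb moved many members a little and in either direction. Of the 36 genes, 14 were higher and 9 lower with IFNb, and 13 did not pass the test; 26.5% of all genes tested were higher and 26.5% lower. None reached a 2-fold difference, with Exo1 just under it, and 4.21% of all genes were called and at least 2-fold higher and 2.77% lower. The median over the members was 0.05 on the log2 scale and -0.00 over all genes. The groups did not overlap for 13 members that were higher and 10 that were lower, where 29.1% and 28.5% of all genes tested had such groups. Scaled by library size alone, 10 members were higher and 11 lower, and the share of calls over all genes that were higher dropped from 50% to 39.4%.

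The members highest against vehicle in control cells were Exo1 (1.996-fold), Atm (1.68-fold), Clspn (1.59-fold) and Msh6 (1.53-fold), and all 4 were called. The lowest were Fancl (1.74-fold lower), Fanci (1.47-fold lower), Parp2 (1.41-fold lower) and Chek2 (1.39-fold lower), also all called. The calls by pathway were 5 higher and 2 lower of 15 in homologous recombination and 2 and 3 of 8 in the Fanconi anaemia pathway. They were 3 and 2 of 6 among the checkpoint genes, and 2 and 0 of 3 in end joining. Over all genes tested the shares were 26.5% higher and 26.5% lower. Several of the smaller differences were not stable. Rad54b was lost without control vehicle replicate 2 (adjusted p = 0.0523), Xrcc3 without control vehicle replicate 1 or control IFNb replicate 1 (0.0504 and 0.0693), and Fancg without control vehicle replicate 1 or control IFNb replicate 2 (0.0676 to 0.103). In the other direction, Fancc passed without control vehicle replicate 1 or control IFNb replicate 2 and Bard1 passed without control vehicle replicate 2, both as lower.

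In Adar-null cells, most of the members were lower with IFNb, and many of them by several fold. Of the 36 genes, 30 were lower and 3 higher with IFNb, and 3 did not pass the test. Among all genes tested, 35.7% were lower and 36.6% higher. At least 2-fold lower were 20 members, where 11.7% of all genes tested were. The median log2 fold change was -1.22 over the members and 0.01 over all genes tested. All IFNb libraries lay below all vehicle libraries in 30 members and above them in 4, where 36.2% and 37.5% of all genes tested had such groups. The 3 members higher were Atm, Xrcc5 and Nbn, and the 3 not called were Atr, Xrcc6 and Lig4. Because the members were chosen with earlier results known, the distance of these counts from the shares over all genes was not tested.

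The difference between the genotypes was tested directly as the interaction, the IFNb response in Adar-null cells minus that in control cells. It was negative in 25 members and positive in 1, Atr, at an adjusted p under 0.05, where 30.7% of all genes tested were negative and 28.6% positive. In 21 members it was negative by at least 2-fold, against 11.7% of all genes. Its median was -1.37 over the members and 0.01 over all genes tested. The control libraries enter both this comparison and the IFNb comparison in control cells, and the Adar-null libraries likewise, so these results share samples. Comparing the genotypes under IFNb directly, 26 members were lower and 3 higher in Adar-null cells (36.2% and 36.4% of all genes tested), and 21 were at least 2-fold lower (12.6% of all genes). The libraries of the 2 genotypes under IFNb did not overlap in 26 members that were lower and 4 that were higher in Adar-null cells, a pattern that 37% of all genes tested showed in each direction.

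Set side by side, 11 members were called higher with IFNb in control cells and lower in Adar-null cells, namely Brca1, Rad54b, Exo1, Mre11a, Rad50, Fancg, Fancm, Clspn, Topbp1, Parp1 and Msh6. That pattern was found in 6.44% of all genes tested. With library size alone, 4 of the 11 (Brca1, Fancg, Topbp1 and Parp1) were not called in control cells. The reverse pattern was found in 0 members and in 5.91% of all genes. In 8 members the level was called lower in both genotypes (Xrcc3, Rbbp8, Fancd2, Fanci, Fancl, Chek2, Parp2 and Rad18), and in 11 it was lower in Adar-null cells and not called in control cells (Brca2, Bard1, Palb2, Rad51ap1, Rad54l, Xrcc2, Blm, Fanca, Fancb, Fancc and Chek1). Atm and Xrcc5 were called higher in both genotypes. The shares of all genes tested that were lower in both, lower in Adar-null cells alone or higher in both were not computed. Those counts of members are therefore a description only.

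**Figure D2:**
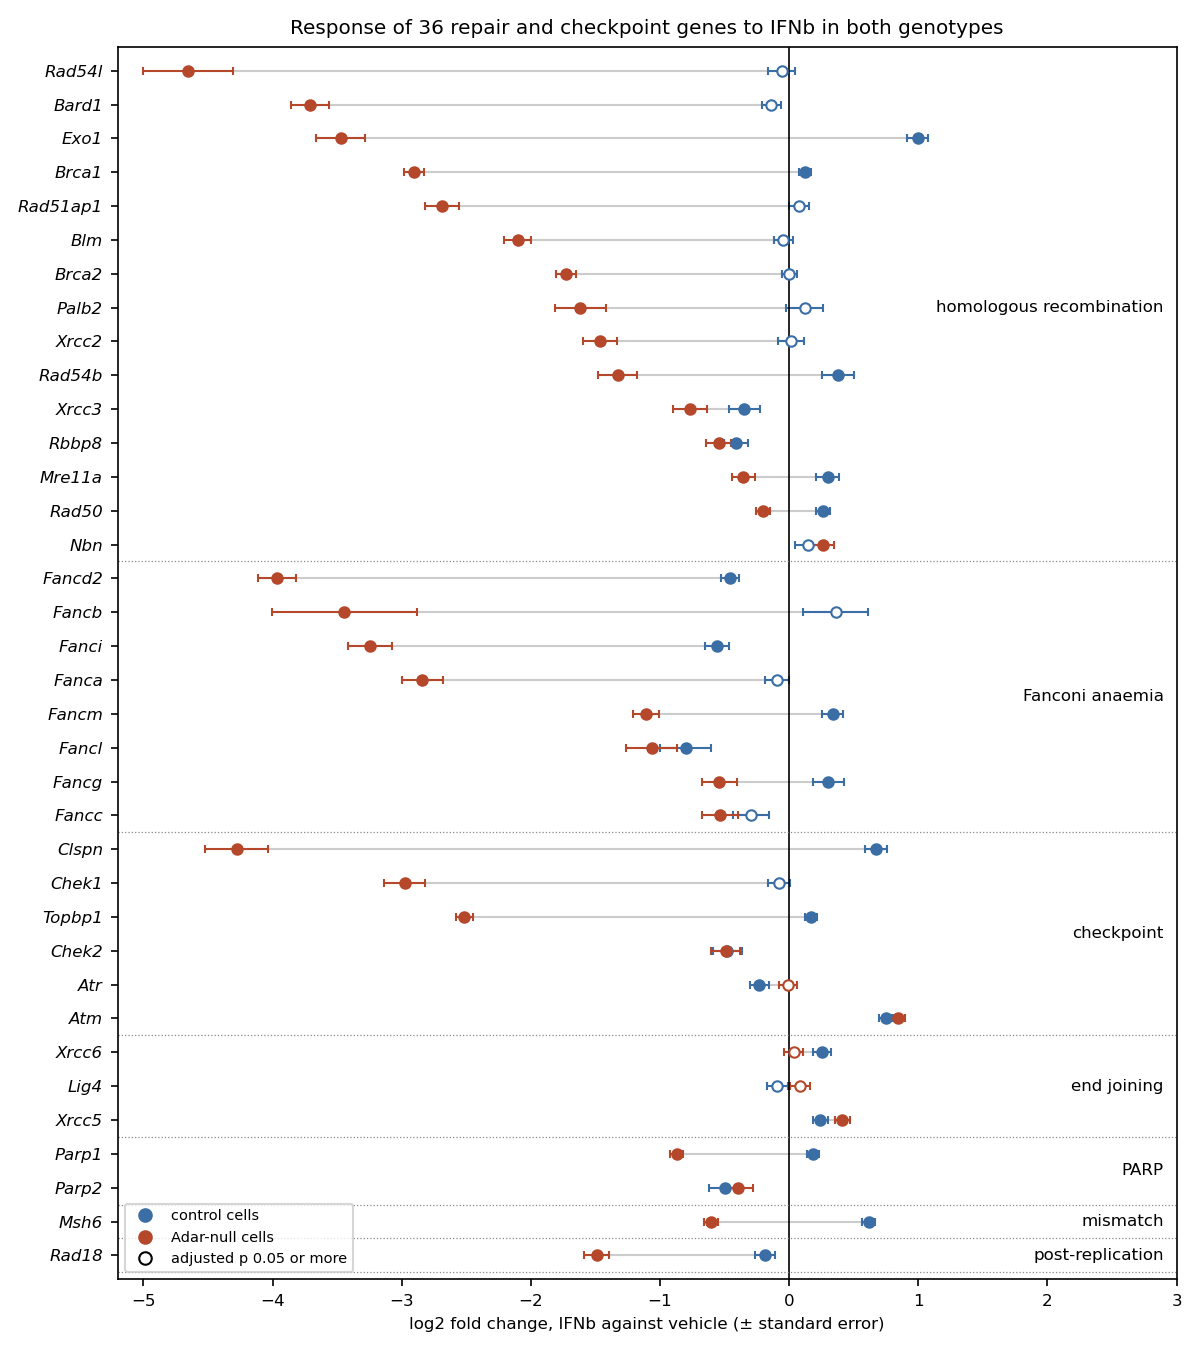
log2 fold change (± standard error) of IFNb against vehicle for the 36 members by pathway, in control cells (blue) and Adar-null cells (red), with open circles where the adjusted p was 0.05 or more. Control values lie between -0.80 and 1.00, while Adar-null values reach -4.65 for Rad54l and 0.84 for Atm.

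Homologous recombination, the pathway with the most members, also showed the largest number of changes. With IFNb in Adar-null cells, 14 of the 15 were lower, 10 of them at least 2-fold, and 1, Nbn, was higher. Of all genes tested, 35.7% were lower, 11.7% at least 2-fold lower and 36.6% higher. The Fanconi anaemia genes had higher shares, with 100% lower and 75% at least 2-fold lower, against 93.3% and 66.7% in homologous recombination. The median over the 15 was -1.62. The interaction was called negative in 13 of the 15 (30.7% of all genes tested), with Rbbp8 and Nbn as the exceptions. Within the pathway, the genes of the MRE11 complex moved least: Mre11a, Rad50 and Nbn differed from vehicle by -0.35, -0.20 and 0.26 on the log2 scale, and the group's other 12 by -0.55 to -4.65.

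Rad54l (chr4:116094264-116123690, minus strand, GRCm38 in GENCODE vM21), a DNA motor protein of homologous recombination, had the most negative response of the members. Its levels were 26.4, 26.2 and 28.2 CPM in control vehicle, 25.3, 27.6 and 24.5 CPM in control IFNb, 24.0, 24.4 and 27.8 CPM in Adar-null vehicle and 0.947, 1.20 and 0.791 CPM in Adar-null IFNb libraries. Control and vehicle libraries covered the same narrow range, and the 3 Adar-null IFNb libraries were near 1 CPM. The log2 fold change was -4.65 ± 0.35 (SE) in Adar-null cells (adjusted p = 1.08e-40), -0.06 in control cells (adjusted p = 0.674), and -4.60 ± 0.36 (SE) for the interaction. Its paralogue Rad54b was at 17.9, 15.3 and 17.7 CPM in control vehicle, 20.8, 23.5 and 21.7 CPM in control IFNb, 20.7, 19.2 and 21.0 CPM in Adar-null vehicle and 8.71, 8.72 and 6.80 CPM in Adar-null IFNb libraries. Here the control IFNb libraries were all above control vehicle and the Adar-null IFNb libraries below every other library, with log2 fold changes of 0.38 ± 0.12 (SE) and -1.33 ± 0.15 (SE).

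Brca1 (chr11:101488764-101551955, minus strand), a ubiquitin ligase subunit that acts early in homologous recombination, was at 166, 150.1 and 151 CPM in control vehicle, 177, 166 and 165 CPM in control IFNb, 165, 164 and 163 CPM in Adar-null vehicle and 22.5, 22.7 and 20.4 CPM in Adar-null IFNb libraries. Adar-null IFNb libraries were far below all others, while the control IFNb and vehicle libraries overlapped. It was 7.49-fold lower with IFNb in Adar-null cells (log2 -2.91 ± 0.08 (SE), adjusted p = 1.62e-69), and the interaction was -3.03 ± 0.09 (SE). The call in control cells (log2 0.12 ± 0.05 (SE), adjusted p = 0.0264) was lost without control vehicle replicate 2 or 3 or control IFNb replicate 1 (0.108 to 0.168). It was also lost with upper-quartile scaling (0.0934), library size alone (0.442) and DESeq2 (0.0795). Its partner Bard1 went from 76.7 to 5.88 CPM in Adar-null cells, 13.1-fold lower, and from 67.2 to 61.0 CPM in control cells (adjusted p = 0.093). Palb2, which links BRCA1 to BRCA2, was 3.07-fold lower in Adar-null cells (adjusted p = 8.34e-14), and its log2 difference in control cells was 0.12 ± 0.14 (SE).

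Brca2 (chr5:150522630-150570329, plus strand), whose product acts on single-stranded DNA in homologous recombination, held the same level in the other 3 groups. It was at 95.2, 94.2 and 97.9 CPM in control vehicle, 94.4, 95.4 and 97.3 CPM in control IFNb, 94.6, 94.6 and 93.9 CPM in Adar-null vehicle and 26.9, 28.3 and 29.9 CPM in Adar-null IFNb libraries. The first 3 groups overlapped throughout and the Adar-null IFNb libraries lay well below. The log2 fold change was -1.73 ± 0.08 (SE) in Adar-null cells (adjusted p = 2.93e-44) and -0.00 ± 0.06 (SE) in control cells.

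Exo1 (chr1:175880581-175913489, plus strand), the exonuclease of long-range end resection, had the largest opposite responses in the pathway. It was at 41.3, 37.1 and 34.7 CPM in control vehicle, 74.9, 80.2 and 70.4 CPM in control IFNb, 45.7, 38.8 and 40.6 CPM in Adar-null vehicle and 4.73, 3.31 and 3.32 CPM in Adar-null IFNb libraries. IFNb libraries were above all vehicle libraries in control cells and below all of them in Adar-null cells. The fold changes were 1.996-fold higher (adjusted p = 9.01e-22) and 11.1-fold lower (adjusted p = 6.12e-45), and the interaction was -4.47 ± 0.21 (SE). Nbn, the subunit that recruits ATM to breaks, was at 31.3, 33.3 and 27.8 CPM in control vehicle, 31.7, 36.8 and 33.3 CPM in control IFNb, 35.8, 33.7 and 35.7 CPM in Adar-null vehicle and 38.8, 42.2 and 44.1 CPM in Adar-null IFNb libraries. The Adar-null IFNb libraries were above the Adar-null vehicle libraries, and the control groups overlapped. Its log2 fold change in Adar-null cells was 0.26 ± 0.09 (SE) (adjusted p = 0.00625). That call was lost without Adar-null IFNb replicate 3 (adjusted p = 0.0586) and with library size alone (0.0806), and the interaction was not called (0.12 ± 0.13 (SE), adjusted p = 0.449).

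The remaining homologous recombination genes were all lower with IFNb in Adar-null cells. Rad51ap1 was 6.45-fold lower with IFNb in Adar-null cells, the helicase Blm 4.30-fold and Xrcc2 2.76-fold, and none of these 3 was called in control cells. Xrcc3 was lower in control cells (-0.35 ± 0.12 (SE)) and in Adar-null cells (-0.77 ± 0.13 (SE)). Its interaction of -0.42 ± 0.18 (SE) (adjusted p = 0.0316) was lost without any 1 of 5 libraries, control vehicle replicate 2, control IFNb replicate 3, Adar-null vehicle replicate 3 and Adar-null IFNb replicates 2 and 3 (0.0636 to 0.147), and with DESeq2 (0.097). Rbbp8 was lower by similar amounts in both, at -0.41 ± 0.09 (SE) in control and -0.55 ± 0.09 (SE) in Adar-null cells, and its interaction was -0.13 ± 0.13 (SE) (adjusted p = 0.399). Mre11a and Rad50 were higher in control cells (0.30 ± 0.09 (SE) and 0.26 ± 0.05 (SE)) and lower in Adar-null cells (-0.35 ± 0.09 (SE) and -0.20 ± 0.05 (SE)), and their interactions were called at -0.65 and -0.46.

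All 8 Fanconi anaemia genes were lower with IFNb in Adar-null cells, 6 of them at least 2-fold, and the median was -1.97. Of all genes tested, 35.7% were lower there and 11.7% at least 2-fold lower. In control cells 2 were higher and 3 lower, where 26.5% of all genes tested were higher and 26.5% lower. The interaction was called negative in 6 of the 8 (30.7% of all genes tested), with Fancc and Fancl as the exceptions.

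Fancd2 (chr6:113531682-113597017, plus strand) was at 75.4, 84.3 and 84.2 CPM in control vehicle, 60.9, 61.4 and 55.5 CPM in control IFNb, 93.7, 97.7 and 89.0 CPM in Adar-null vehicle and 6.25, 6.01 and 5.70 CPM in Adar-null IFNb libraries. Each genotype's IFNb libraries were below its vehicle libraries, with those of Adar-null cells near 6 CPM. It was 1.37-fold lower in control cells (adjusted p = 5.77e-09) and 15.6-fold lower in Adar-null cells (adjusted p = 8.79e-64), and the interaction was -3.51 ± 0.16 (SE). Fanci, whose product pairs with FANCD2, moved likewise, 1.47-fold lower in control and 9.48-fold lower in Adar-null cells. Fanca, a subunit of the core complex, was 7.15-fold lower in Adar-null cells and not called in control cells (-0.09 ± 0.09 (SE)).

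Fancb, an X-linked subunit of the core complex, had the fewest counts of the members in every group. It was at 3.16, 5.11 and 4.15 CPM in control vehicle, 4.81, 4.72 and 6.51 CPM in control IFNb, 4.80, 5.38 and 4.64 CPM in Adar-null vehicle and 0.379, 0.301 and 0.633 CPM in Adar-null IFNb libraries. Adar-null IFNb libraries were below all others, but they held only 8 counts in all, and Fancb was the 1 member with under 10 counts in a group. The log2 fold change in Adar-null cells was -3.44 ± 0.56 (SE) (adjusted p = 6.97e-13), with a standard error wider than that of any other member. Fancc, also of the core complex, was at 14.9, 17.6 and 17.2 CPM in control vehicle, 12.1, 14.7 and 13.5 CPM in control IFNb, 19.9, 18.4 and 16.0 CPM in Adar-null vehicle and 13.8, 11.3 and 12.7 CPM in Adar-null IFNb libraries. Its Adar-null IFNb libraries were below the Adar-null vehicle libraries (-0.54 ± 0.14 (SE), adjusted p = 0.000252), but overlapped with the control IFNb libraries, and the interaction was -0.24 ± 0.19 (SE) (adjusted p = 0.286).

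Fancm, the translocase that anchors the core complex to DNA, was at 43.1, 40.9 and 45.0 CPM in control vehicle, 52.0, 54.1 and 56.4 CPM in control IFNb, 43.9, 46.0 and 45.1 CPM in Adar-null vehicle and 21.0, 23.3 and 18.2 CPM in Adar-null IFNb libraries. Control IFNb libraries were above all vehicle libraries of both genotypes and Adar-null IFNb libraries below them. The log2 fold changes were 0.34 ± 0.08 (SE) and -1.11 ± 0.10 (SE) (adjusted p = 0.000175 and 2.54e-20). Fancg had the same directions at 0.30 ± 0.12 (SE) and -0.54 ± 0.13 (SE), and its control call was lost with library size alone (0.0853) and DESeq2 (0.0734). Fancl, the ubiquitin ligase of the core complex, was 1.74-fold lower in control and 2.09-fold lower in Adar-null cells, with an interaction of -0.26 ± 0.28 (SE) (adjusted p = 0.427).

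The checkpoint genes did not move as one. With IFNb in Adar-null cells, 4 of the 6 were lower, 3 of them at least 2-fold, and Atm was higher. The shares over all genes tested were 35.7% lower, 11.7% at least 2-fold lower and 36.6% higher. The 3 that were at least 2-fold lower, Clspn, Chek1 and Topbp1, belong to the branch that watches over replication forks. The kinase at the head of that branch, Atr, was not called. The median over the 6 was -1.503.

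Clspn (chr4:126556935-126593903, plus strand), the adaptor Claspin that brings CHK1 to ATR, had the most negative interaction of all members. It was at 42.2, 34.1 and 39.2 CPM in control vehicle, 59.3, 61.2 and 62.9 CPM in control IFNb, 39.4, 42.9 and 43.0 CPM in Adar-null vehicle and 1.14, 1.95 and 3.16 CPM in Adar-null IFNb libraries. Control IFNb libraries were above every vehicle library and Adar-null IFNb libraries far below. It was 1.59-fold higher in control cells (adjusted p = 8.64e-12) and 19.4-fold lower in Adar-null cells (adjusted p = 3.76e-48), with an interaction of -4.95 ± 0.26 (SE). Chek1, the effector kinase of that branch, was at 48.8, 44.5 and 45.0 CPM in control vehicle, 48.8, 43.6 and 39.1 CPM in control IFNb, 45.1, 44.6 and 48.0 CPM in Adar-null vehicle and 4.55, 5.11 and 7.59 CPM in Adar-null IFNb libraries. The 3 other groups overlapped and Adar-null IFNb libraries were the lowest, 7.86-fold below vehicle (log2 -2.98 ± 0.16 (SE), adjusted p = 7.09e-43).

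Topbp1, the activator of ATR, was at 214, 189 and 191 CPM in control vehicle, 223, 225 and 220.4 CPM in control IFNb, 199.8, 212 and 189 CPM in Adar-null vehicle and 38.4, 35.3 and 32.0 CPM in Adar-null IFNb libraries. Control IFNb libraries were above all other libraries and Adar-null IFNb libraries below them. It was 5.71-fold lower with IFNb in Adar-null cells (adjusted p = 1.11e-65) and 1.13-fold higher in control cells (adjusted p = 0.00162), a call that library size alone did not give (0.108). Atr itself was at 63.1, 70.1 and 67.5 CPM in control vehicle, 57.3, 58.1 and 55.8 CPM in control IFNb, 68.5, 68.1 and 65.2 CPM in Adar-null vehicle and 76.1, 66.9 and 59.2 CPM in Adar-null IFNb libraries. Control IFNb libraries were below all other libraries, and the 2 Adar-null groups overlapped. Its log2 fold change was -0.23 ± 0.07 (SE) in control cells (adjusted p = 0.00463) and -0.01 ± 0.07 (SE) in Adar-null cells (adjusted p = 0.937). The interaction (0.22 ± 0.10 (SE), adjusted p = 0.0474) was lost when any of 10 libraries was left out (0.055 to 0.317), which were all but control vehicle replicate 1 and Adar-null IFNb replicate 3. It was also lost with library size alone (0.0774), without Rn45s (0.0562), without the filter (0.0617), with DESeq2 (0.112) and with limma-voom (0.0582). The higher Atr level in Adar-null than control cells under IFNb (0.23 ± 0.07 (SE), adjusted p = 0.00259) was lost without Adar-null IFNb replicate 1 (0.114).

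Atm (chr9:53439149-53536740, minus strand), the kinase that answers to double-strand breaks, was the member most raised in Adar-null cells. It was at 92.6, 95.0 and 90.3 CPM in control vehicle, 165, 149.9 and 154 CPM in control IFNb, 95.4, 83.5 and 97.3 CPM in Adar-null vehicle and 172, 171 and 150.3 CPM in Adar-null IFNb libraries. IFNb libraries were above all vehicle libraries in both genotypes and overlapped with each other. It was 1.68-fold higher in control cells (adjusted p = 5.52e-23) and 1.79-fold higher in Adar-null cells (adjusted p = 3.93e-27), and the interaction was 0.09 ± 0.08 (SE) (adjusted p = 0.326). Its effector Chek2 was lower in both genotypes, -0.48 ± 0.11 (SE) in control and -0.49 ± 0.11 (SE) in Adar-null cells, with an interaction of -0.01 ± 0.16 (SE) (adjusted p = 0.947). Between the genotypes under IFNb, Chek2 and Atm were not called, but Chek2 passed as lower in Adar-null cells without Adar-null IFNb replicate 2 (0.0323) and Atm as higher without replicate 3 of that group (0.0391).

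Of the 3 end-joining genes, 0 were called lower with IFNb in either genotype. With so few genes, this count does not set end joining apart from all genes tested. Of 10 other end-joining genes tested, 2 were called lower in control cells and 1 in Adar-null cells. In control cells, 26.5% of all genes tested were lower. In Adar-null cells, 1 of the 3 was higher and 0 lower by edgeR's test (36.6% and 35.7% of all genes tested). The counts were 1 higher and 0 lower also at an unadjusted p under 0.05 (37.6% and 36.5%), and DESeq2 likewise called 0 lower. Xrcc5, the larger Ku subunit, was higher in control cells (88.1 to 104 CPM, log2 0.24 ± 0.06 (SE)) and in Adar-null cells (81.6 to 108 CPM, log2 0.41 ± 0.06 (SE)). Its interaction of 0.17 ± 0.08 (SE) was not called (adjusted p = 0.0705), but passed without control IFNb replicate 1 (0.0194) and with upper-quartile scaling (0.0311).

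Xrcc6, the smaller Ku subunit, was at 61.5, 52.9 and 60.0 CPM in control vehicle, 66.9, 70.9 and 69.7 CPM in control IFNb, 54.7, 56.9 and 52.6 CPM in Adar-null vehicle and 50.4, 57.7 and 59.8 CPM in Adar-null IFNb libraries. Control IFNb libraries were above all others, and the 2 Adar-null groups overlapped. The log2 fold change was 0.26 ± 0.07 (SE) in control cells (adjusted p = 0.00134) and 0.04 ± 0.07 (SE) in Adar-null cells (adjusted p = 0.672). The interaction of -0.22 ± 0.10 (SE) had an adjusted p of 0.0572, and passed with library size alone (0.0427), without Rn45s (0.0496) and without any 1 of 6 libraries (0.0198 to 0.0473). Those were control vehicle replicates 1 and 3, control IFNb replicate 1, Adar-null vehicle replicate 3 and Adar-null IFNb replicates 2 and 3. Under IFNb, Xrcc6 was lower in Adar-null than control cells (-0.30 ± 0.07 (SE), adjusted p = 8.42e-05). Lig4, the ligase that seals the break, was at 45.5, 45.4 and 42.6 CPM in control vehicle, 44.0, 44.0 and 37.4 CPM in control IFNb, 43.2, 46.2 and 44.9 CPM in Adar-null vehicle and 47.5, 48.3 and 46.8 CPM in Adar-null IFNb libraries. The groups lay within a few CPM of each other. Neither IFNb difference passed the test, with log2 values of -0.09 ± 0.08 (SE) and 0.08 ± 0.08 (SE) and adjusted p-values of 0.354 and 0.344. Under IFNb it was higher in Adar-null than control cells (0.19 ± 0.08 (SE), adjusted p = 0.0311). That call was lost without control IFNb replicate 3 or any Adar-null IFNb library (0.0615 to 0.266), and with library size alone (0.0536), without the filter (0.0559) and with DESeq2 (0.066).

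Of the PARP enzymes, which attach poly(ADP-ribose) at DNA breaks, Parp1 was at 174, 167 and 163 CPM in control vehicle, 188, 202 and 182 CPM in control IFNb, 174, 173 and 168 CPM in Adar-null vehicle and 86.7, 97.7 and 96.3 CPM in Adar-null IFNb libraries. Control IFNb libraries were above all vehicle libraries and Adar-null IFNb libraries below them. It was 1.83-fold lower with IFNb in Adar-null cells (log2 -0.87 ± 0.05 (SE), adjusted p = 3.47e-31), and the interaction was -1.05 ± 0.07 (SE). Its higher level in control cells (0.18 ± 0.05 (SE), adjusted p = 0.000695) was not called with library size alone (0.0614). Parp2 was at 25.0, 19.5 and 26.4 CPM in control vehicle, 17.3, 17.2 and 15.5 CPM in control IFNb, 22.4, 24.6 and 26.0 CPM in Adar-null vehicle and 19.1, 18.0 and 18.4 CPM in Adar-null IFNb libraries. IFNb libraries lay below vehicle libraries in both genotypes, by -0.50 ± 0.12 (SE) and -0.40 ± 0.12 (SE) on the log2 scale. The interaction was 0.10 ± 0.17 (SE) (adjusted p = 0.63).

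Msh6 (chr17:87975062-87990892, plus strand), a protein that recognises mismatches, moved in opposite directions in the 2 genotypes. It was at 117, 116 and 125 CPM in control vehicle, 185, 181 and 182 CPM in control IFNb, 117, 128 and 117 CPM in Adar-null vehicle and 81.2, 80.1 and 77.7 CPM in Adar-null IFNb libraries. Within each of the 4 groups the libraries lay close together, and the IFNb libraries stood above vehicle in control and below it in Adar-null cells. The fold changes were 1.53-fold higher (adjusted p = 2.52e-21) and 1.52-fold lower (adjusted p = 1.98e-18), with an interaction of -1.22 ± 0.08 (SE). Rad18, the ubiquitin ligase that marks PCNA at stalled forks, was at 55.5, 58.1 and 50.4 CPM in control vehicle, 47.0, 50.3 and 46.7 CPM in control IFNb, 52.3, 52.7 and 59.9 CPM in Adar-null vehicle and 18.4, 20.9 and 19.0 CPM in Adar-null IFNb libraries. Control IFNb libraries lay just below control vehicle libraries, and Adar-null IFNb libraries were the lowest, 2.81-fold below vehicle (log2 -1.49 ± 0.10 (SE), adjusted p = 7.48e-30). The call in control cells (-0.19 ± 0.08 (SE), adjusted p = 0.0358) was lost without control vehicle replicate 1 or 2 or control IFNb replicate 1 or 3 (0.0849 to 0.19), and with DESeq2 (0.11).

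Levels of different genes were compared per kilobase of annotated exon (GENCODE vM21). With vehicle in control cells, the highest members were Xrcc5 (34.5 ± 1.62 CPM per kb, SD, n = 3), Parp1 (31.8 ± 0.995) and Msh6 (27.5 ± 1.16), and the lowest were Fancc (1.98 ± 0.173), Palb2 (1.83 ± 0.281) and Fancb (1.39 ± 0.327). Brca1 (18.2 ± 1.03) and Topbp1 (17.6 ± 1.22), neighbours in that order, differed by less than either SD. So did Chek2 (9.97 ± 1.03) and Chek1 (9.95 ± 0.513). In Adar-null cells with IFNb, Xrcc5 was again highest (42.4 ± 0.623 CPM per kb), followed by Rad50 (20.8 ± 1.11), Msh6 (18.3 ± 0.42), Parp1 (17.7 ± 1.13) and Nbn (16.5 ± 1.06). The lowest were then Exo1 (0.450 ± 0.0973), Clspn (0.290 ± 0.142), Fancb (0.147 ± 0.0582) and Rad54l (0.127 ± 0.027). Brca1 and Topbp1 had moved down the order, to 2.56 ± 0.15 and 3.14 ± 0.289 CPM per kb, while Atm had moved up, to 15.9 ± 1.19 from 8.91 ± 0.724 with vehicle. The exon lengths come from an annotation that may differ from the one used for counting.

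**Figure D3:**
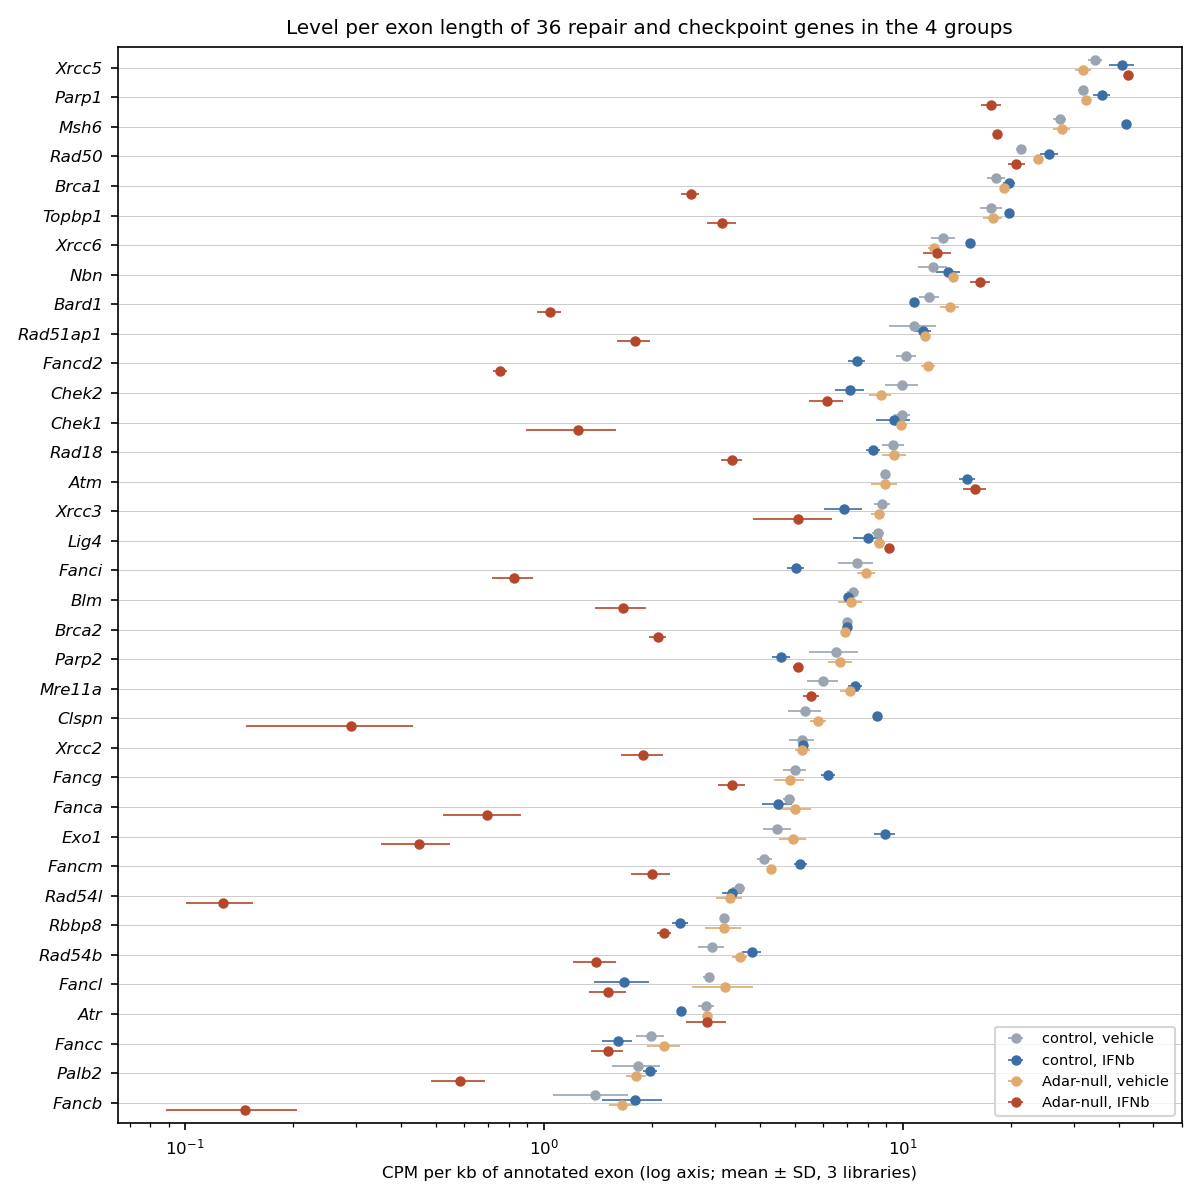
Level per annotated exon length (CPM per kb, log axis) of the 36 members in the 4 groups, points and bars giving mean ± SD of 3 libraries, ordered by control vehicle. Most red points (Adar-null IFNb) lie left of the other 3 groups, by the greatest distance for Rad54l and Clspn, and those of Xrcc5, Nbn, Atm and Lig4, for example, do not.

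Exons of 17 members overlap those of another annotated gene, and in 10 of them that gene is also in the count table: Atr, Fanca, Fancc, Fanci, Fancl, Mre11a, Msh6, Rad54b, Rad54l and Xrcc3. In 9 of these the neighbour lies on the opposite strand. The strand setting of the counting is not given in the sources used here, so reads from such pairs could not be told apart, and the values of these 10 are less certain.

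Genes of the same pathways that are not members were examined in lists of their own. With IFNb in Adar-null cells, 17 of 30 other homologous recombination genes tested were lower and 4 higher (median -0.44), and 7 of 11 other Fanconi anaemia genes were lower and 3 higher (median -0.44). The most negative and most positive called genes of these lists were the nuclease subunit Eme1 (-3.53 ± 0.34 (SE)) and Rad52 (1.45 ± 0.13 (SE)), and the ubiquitin-conjugating enzyme Ube2t (-3.01 ± 0.29 (SE)) and the nuclease Fan1 (0.54 ± 0.16 (SE)). Of 22 other checkpoint genes, 11 were lower and 5 higher (median -0.13), with the phosphatase Cdc25b at -4.03 ± 0.15 (SE) and the p53 ligase Mdm2 at 1.66 ± 0.06 (SE). Of 8 other mismatch repair genes, 5 were lower and 0 higher in edgeR's test, and 5 lower and 0 higher at an unadjusted p under 0.05, from Lig1 at -3.42 ± 0.11 (SE) to Pms1 at -0.27 ± 0.12 (SE). Among all genes tested, 35.7% were lower and 36.6% higher in this comparison.

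Of 10 other end-joining genes, 1 was lower (Prkdc, -0.22 ± 0.07 (SE)) and 3 were higher, the most positive being the nuclease Artemis, Dclre1c (0.93 ± 0.14 (SE)). Of 12 other post-replication genes, 3 were lower and 5 higher, from the polymerase gene Polh (-0.62 ± 0.09 (SE)) to Polk (0.98 ± 0.08 (SE)). Base and nucleotide excision repair had 6 lower and 12 higher of 25 tested (median 0.21), from the glycosylase Neil3 (-6.13 ± 0.55 (SE)) to the nuclease Ercc5 (1.43 ± 0.07 (SE)). Neil3 stood at 28.4 CPM with vehicle and only 0.395 CPM with IFNb in those cells, where 3 counts over the group are 0.164 CPM. For all of these lists, the shares over all genes tested were 35.7% lower and 36.6% higher. The 4 other PARP and glycohydrolase genes were all higher, from Parg (0.26 ± 0.07 (SE)) to Parp3 (2.78 ± 0.09 (SE)), and so differed in direction from Parp1 and Parp2.

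Cell-cycle genes moved with the members. All 20 proliferation genes were at least 2-fold lower with IFNb in Adar-null cells (median -2.80), from Rrm2 (-4.54 ± 0.11 (SE)), the ribonucleotide reductase subunit, to the cyclin gene Ccne2 (-1.43 ± 0.32 (SE)). In control cells 7 of the 20 were higher and 6 lower (median 0.03). Over all genes tested, 11.7% were at least 2-fold lower, 35.7% lower and 36.6% higher in Adar-null cells. In control cells 26.5% were higher and 26.5% lower. Of 20 transcription regulators of the cell cycle, 14 were lower and 1 higher in Adar-null cells (median -0.94), from E2f8 (-5.68 ± 0.37 (SE)) to Lin37 (1.31 ± 0.22 (SE)). Among 19 p53 targets and damage-response genes tested, 17 were higher and 1, Sesn1 (-0.98 ± 0.15 (SE)), was lower (median 1.78). The most positive was Gadd45g at 6.73 ± 0.66 (SE), from 0.277 CPM with vehicle to 30.5 CPM with IFNb in Adar-null cells. Its vehicle level is near the floor, as 3 counts over that group are 0.161 CPM. In control cells 12 of these 19 were higher and 4 lower (median 0.43). Polk, Xpc and Ddb2 stand in this list and in another. These lists too were chosen with earlier results of these data known. The part of these shifts in the levels of the repair genes was not tested.

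**Figure D4:**
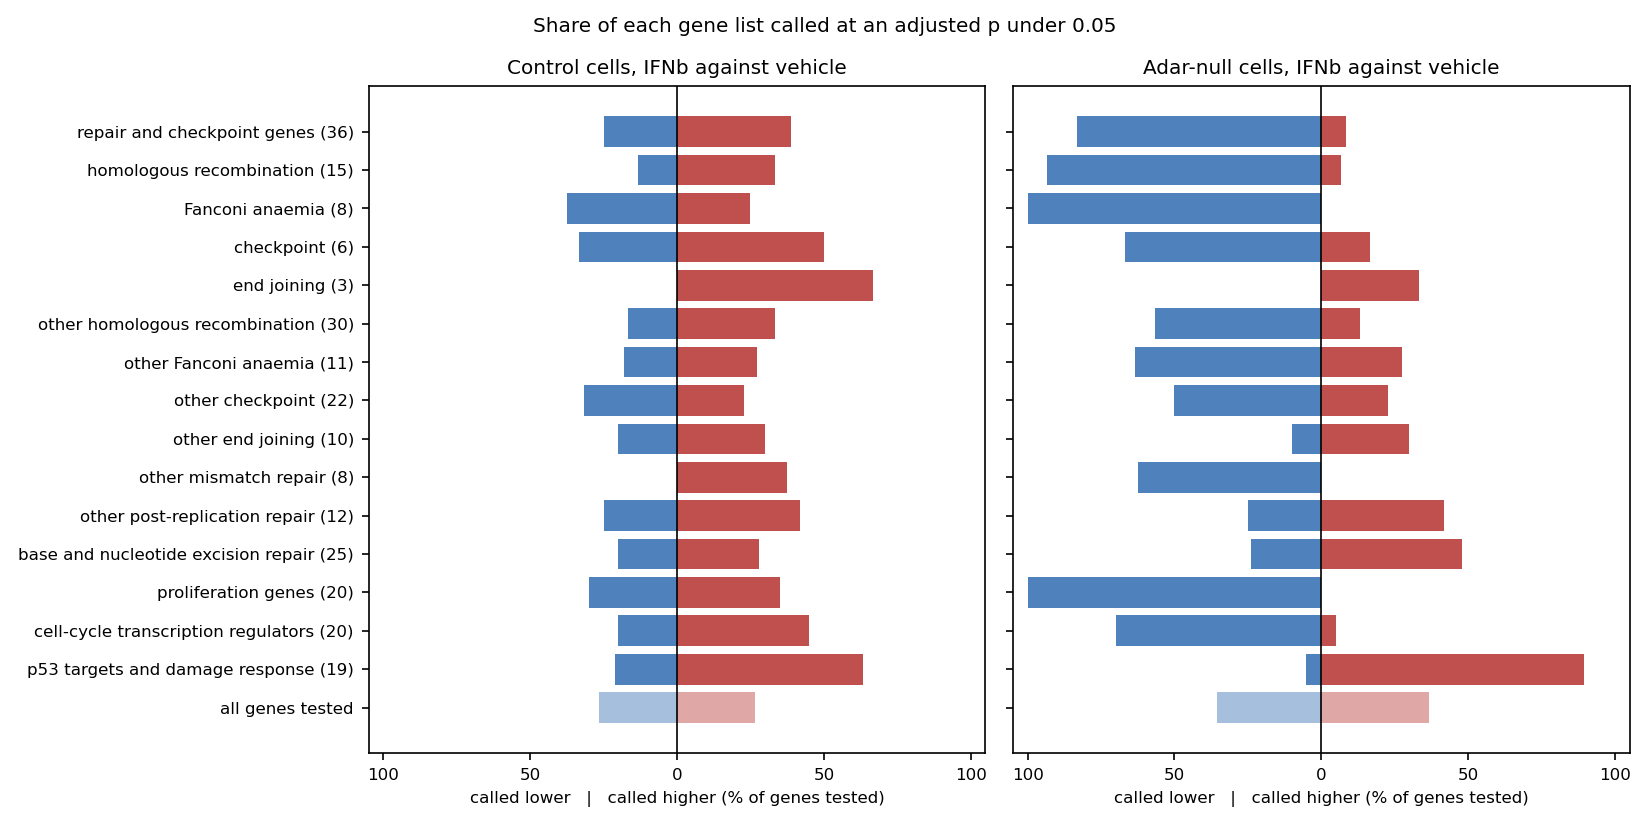
Percent of the genes tested in each list (number in brackets) that were called lower (blue, left) or higher (red, right) with IFNb, in control cells and in Adar-null cells, with all 11561 genes in pale bars at the bottom. In Adar-null cells the bars of homologous recombination, Fanconi anaemia and proliferation genes point mostly or only left, and that of p53 targets points mostly right. The end-joining bar points right for 1 gene of 3 (33.3%), near the 36.6% of all genes tested.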

How the data were processed

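Gene counts of 12 libraries were taken as the authors deposited them, as whole-number counts per gene symbol. The submitters' processing notes name bcl2fastq 2.19.1, Trimmomatic 0.33, Bowtie2 2.2.4, HTSeq 0.6.1p1, DESeq2 and the mm10 build, and the labels' protocols give directional, rRNA-depleted, paired-end libraries. For the counting, the annotation, strand option and other settings were not given in the sources used here. An IFN-gamma arm named in the series' design is not analysed here. Of the deposited symbols, 25 had been turned into dates, none of them a member.

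Members and lists were chosen with earlier results of these data known. Counts were filtered by group with edgeR 4.0.16 (R 4.3.3), scaled by TMM and fitted with 1 term per group over all 12 libraries. The 5 comparisons were tested with robust quasi-likelihood F tests, with Benjamini-Hochberg adjustment over the 11561 genes tested. The common biological coefficient of variation was 0.0397. Standard errors come from the quasi-likelihood variance, held at or above counting error. CPM values use TMM-scaled library sizes, and 3 counts over a group of 3 libraries correspond to 0.157 to 0.173 CPM. Pairs of replicates differed by more than sampling noise (chi-square per degree of freedom 1.47 to 3.23). The fit was tested on simulated data in which few genes changed, in 1 group only. A share of changed genes as large as that called here was not simulated.

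The genes with values in every library were, by rule, the members with the most negative and most positive interaction in each pathway of 3 or more, both PARP enzymes, Msh6, Rad18, Brca1, Brca2, Atm, Chek1, Fancd2, and up to 6 called in opposite directions; other lists are represented by their most negative and most positive called genes. Alternatives were RLE (relative log expression) and upper-quartile scaling, library size alone, removal of Rn45s, no filter, DESeq2 1.42.0, limma-voom (limma 3.58.1), a test against 1.5-fold, fits of only the groups compared, a replicate block, and leaving out each library.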

Additional observations from a re-analysis of the deposited data

Results flagged for a closer look

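For 26 of the 36 repair and checkpoint genes, the response to IFNb differed between the 2 genotypes in edgeR's test of the interaction, which called 30.7% of all genes tested negative and 28.6% positive. The values below are that difference on the log2 scale, Adar-null minus control. In homologous recombination it was -4.6 for Rad54l, -4.47 for Exo1, -3.57 for Bard1, -3.03 for Brca1, -2.77 for Rad51ap1, -2.06 for Blm, -1.74 for Palb2, -1.73 for Brca2, -1.71 for Rad54b, -1.48 for Xrcc2, -0.653 for Mre11a, -0.464 for Rad50 and -0.423 for Xrcc3. Among the Fanconi anaemia genes it was -3.8 for Fancb, -3.51 for Fancd2, -2.74 for Fanca, -2.68 for Fanci, -1.45 for Fancm and -0.844 for Fancg. The checkpoint genes gave -4.95 for Clspn, -2.9 for Chek1, -2.68 for Topbp1 and 0.224 for Atr, the 1 positive value. It was -1.05 for Parp1, -1.22 for Msh6 and -1.3 for Rad18. No member of end joining was among them, though Xrcc6 and Xrcc5 were near the threshold (adjusted p = 0.0572 and 0.0705). Xrcc6 passed without any 1 of 6 libraries, and Xrcc5 without control IFNb replicate 1. The call was lost for Atr when any of 10 of the 12 libraries was left out, and for Xrcc3 when any of 5 was.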

How the results depend on the processing

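No member changed direction in any alternative among the called values. Members called higher in Adar-null vehicle cells numbered 1 in the reported fit, 2 with RLE scaling, 3 with upper-quartile scaling, 2 without Rn45s, and 0 with DESeq2 and with the test against 1.5-fold. The interaction was called positive in 1 member, in 2 with upper-quartile scaling, and in 0 with library size alone, without Rn45s, without the filter, with DESeq2, with limma-voom and with the test against 1.5-fold. Against 1.5-fold, 0 members were higher in Adar-null than control cells under IFNb, 2 were higher and 0 lower with IFNb in control cells, and 1 was higher in Adar-null cells; 21 of the 30 members lower in Adar-null cells passed it, and 21 of the 25 negative interactions. Over all genes, DESeq2 called 324 genes with vehicle in place of 753, and the test against 1.5-fold called 17 with vehicle, 3306 between genotypes under IFNb, 980 for IFNb in control cells, 3301 in Adar-null cells and 2592 for the interaction, a stricter question by its construction. For the other changes the cause was not tested. Leaving out each library, the vehicle comparison called 308 to 801 genes and 0 to 3 members higher, the genotypes under IFNb gave 1 to 3 members higher, and the interaction gave 0 to 1 positive. IFNb in Adar-null cells gave 30 members lower each time.

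With the replicate number as a block, 711 genes were called in the vehicle comparison, 8347 between genotypes under IFNb, 6075 and 8338 for IFNb in control and Adar-null cells, and 6816 for the interaction, and the counts of members called were the same in all 5. Deviations from group means correlated at -0.1 to 0.0618 in the 18 pairs of libraries that share a number. In the 36 pairs that do not, they correlated at -0.103 to 0.1, and 3 of 12 libraries correlated best with their own number. No effect shared by number was thus visible. Whether libraries of the same number were handled together cannot be read from these values.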
